A study of Mus musculus with 12 samples.

Results

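Oncofetal genes are active in the embryo, fall silent in most adult organs and return in many tumours, among them liver cancer. The 10 genes described here encode 3 groups of such factors. The RNA-binding proteins are Igf2bp1, Igf2bp2, Igf2bp3, Lin28a, Lin28b and Trim71. The chromatin and transcription factors are Hmga1, Hmga2 and Sall4, and Gpc3 encodes a cell surface proteoglycan. They were chosen by name and found by their Ensembl identifiers, which gave 10 genes of the 53715 in the table of counts. RNA was sequenced from C57BL/6JOlaHsd mice in 3 groups of 4 biological replicates. Hepatoblasts, the bipotent progenitors of hepatocytes and bile duct cells, were isolated at E14.5 by magnetic sorting for the surface protein Dlk1 and lysed at once. Diff. hepatocytes were such E14.5 Dlk1+ cells after 4 days on fibronectin-coated plates, in a differentiation medium with serum, insulin, dexamethasone and Matrigel. Mature hepatocytes came from male mice of 8-12 weeks, were isolated by collagenase perfusion and were lysed without culture. Each isolation of Dlk1+ cells pooled the livers of many embryos and included a lysis of erythrocytes, and the sex of the embryos is not given in the sources used here. Age, the way of isolation and possibly sex differ together between hepatoblasts and mature hepatocytes, and their parts cannot be told apart. Between Diff. and mature hepatocytes culture differs along with all of these, and the parts cannot be told apart there either.

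Several of these genes form a known circuit of developmental timing around the microRNA let-7. LIN28A and LIN28B bind precursors of let-7 and block their maturation, while mature let-7 represses the mRNAs of Lin28a, Lin28b, Trim71, Hmga2 and the Igf2bp genes through sites in their 3′ untranslated regions. TRIM71, the mouse relative of the worm timing protein LIN-41, is an RNA-binding protein with a RING domain that silences mRNAs of differentiation. IGF2BP1, IGF2BP2 and IGF2BP3 stabilise bound mRNAs and can read N6-methyladenosine, a chemical mark on mRNA. HMGA1 and HMGA2 are small proteins that bend AT-rich DNA, and SALL4 is a zinc finger repressor that recruits the NuRD deacetylase complex. GPC3, glypican-3, is held in the membrane by a lipid anchor, binds Wnt and hedgehog ligands and is a marker of hepatoblasts and of hepatocellular carcinoma.

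The let-7 family is shown first because its seed, the bases with which a microRNA pairs to its targets, is common to its members and recurs in the genes below. The 8 distinct mature let-7 sequences on the 5′ arm in RefSeq (GRCm38.p6) share 1 seed. The 3 printed here as examples, 5′ to 3′ with the seed (bases 2 to 8) in capitals, differ in the bases outside it.
mmu-let-7a-5p, chr13:48538239-48538260, minus strand: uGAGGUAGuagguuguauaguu
mmu-let-7g-5p, chr9:106178846-106178867, plus strand: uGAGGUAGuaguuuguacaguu
mmu-let-7d-5p, chr13:48536078-48536099, minus strand: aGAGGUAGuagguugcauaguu

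A match to this seed reads CTACCTC in a transcript, and the longer 8-base match, with an A opposite the first base of let-7, reads CTACCTCA. Every 8-base match is also counted as a 7-base match. These letters were searched for on the sense strand in the 3′ untranslated region of the longest coding transcript of each gene (GENCODE M21, GRCm38). Of 14479 tested genes with such a region, 10.01% had at least 1 match, 1.30% had at least 2, 0.0829%, or 12 genes, had 4 or more, and 3.54% had an 8-base match. Of the 10 oncofetal genes, 9 had at least 1 match, 5 had at least 2, 8 had an 8-base match, and Igf2bp1, Lin28b, Hmga2 and Trim71 had 4 matches each, which made them 4 of the 12. Their regions were also longer, with a median of 2447 bases against 1090 over all genes, and per kb of region they held 0.753 matches against 0.073. Since most of these genes are known let-7 targets, as given above, the count describes them and is no independent finding. Gpc3, with a region of 359 bases, was the gene without a match. The matches shown here are those of Hmga2, the 1 of Lin28b that lies closest to its stop codon, the close pair in Trim71, 1 of Igf2bp1 with 8 bases, and that of Hmga1, which has only 7. Capitals mark the match, and the position counts from the first base after the stop codon.
Hmga2 position 58, chr10:120364223-120364252, minus strand: gggggcgccgacattcaatttCTACCTCAg
Hmga2 position 1295, chr10:120362987-120363015, minus strand: aataatccccactcctcaataCTACCTCt
Hmga2 position 1733, chr10:120362549-120362577, minus strand: gacttcctgatttgcaaggaaCTACCTCc
Hmga2 position 2591, chr10:120361691-120361719, minus strand: ttgtacaatcaaaacacactaCTACCTCt
Lin28b position 36, chr10:45381021-45381050, minus strand: cccttcacccgggcgggaagtCTACCTCAt
Trim71 position 3591, chr9:114509046-114509075, minus strand: attttgtttagtatggattttCTACCTCAa
Trim71 position 3617, chr9:114509020-114509049, minus strand: tcaattttggcaaaaagttgtCTACCTCAc
Igf2bp1 position 1715, chr11:95961777-95961806, minus strand: ggcagtgctgtgcgaagtaaaCTACCTCAa
Hmga1 position 801, chr17:27563271-27563299, plus strand: atcttctcctctgttcacaaaCTACCTCt

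**Figure D1:**
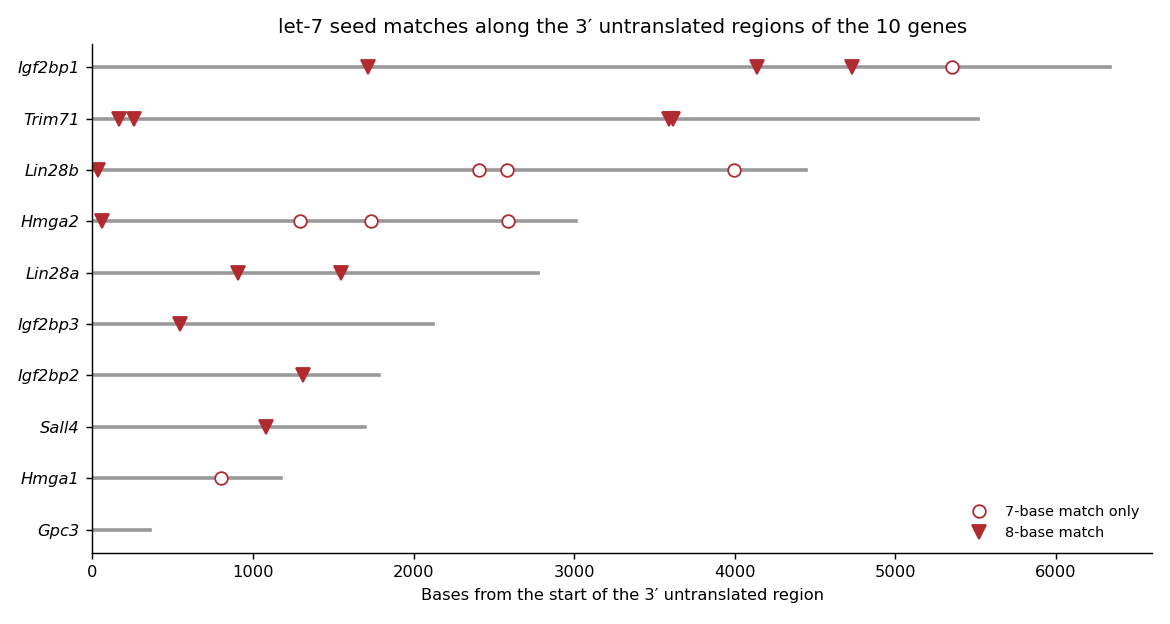
The 3′ untranslated region of each of the 10 genes is drawn to scale as a grey line, in bases from its first base (horizontal axis), with filled triangles at 8-base let-7 matches and open circles at matches of 7 bases only. Igf2bp1, Trim71, Lin28b and Hmga2 hold 4 matches each, Lin28a holds 2, Igf2bp2, Igf2bp3, Sall4 and Hmga1 hold 1 each and Gpc3 holds none.

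The libraries held 19581551 to 25216977 counted reads. A level is given in CPM, the reads of a gene relative to a library size scaled with edgeR's TMM factors, as mean ± SD over 4 libraries where an error is given. The cell types of the labels were checked with 10 identity genes. By the rule for a call given below, 2 were lower and 4 higher in Diff. hepatocytes than in hepatoblasts, and 2 and 8 in mature hepatocytes. Against mature hepatocytes, 5 were lower and 2 higher in Diff. hepatocytes. Among them, Ttr had 1955, 1059 and 7897 CPM and Cyp3a11 5.43, 355.5 and 3945 CPM in hepatoblasts, Diff. and mature hepatocytes. Dlk1, the protein used for sorting, had mean levels of 3523, 94.2 and 4.19 CPM in hepatoblasts, Diff. and mature hepatocytes, Cps1, an enzyme of the urea cycle, of 22.0, 5920 and 6066 CPM, and Cyp2e1, an adult cytochrome P450, of 2.82, 3.24 and 6504 CPM. In libraries of mixed RNA, fewer cells of a type and less RNA per cell cannot be told apart. Hepatoblasts replicate 1 stood apart from the other hepatoblast libraries, with a summed level of 3512 CPM over 12 erythroid markers against 509 to 775 CPM, of 341 CPM over 10 markers of haematopoietic progenitors against 31.5 to 54.2 CPM, and of 313 CPM over 10 macrophage markers against 75.4 to 88.7 CPM. Diff. hepatocytes replicate 1 stood apart from its group with 204.9 CPM over the macrophage markers against 40.5 to 94.7 CPM. It had 182.5 CPM over 12 cell cycle genes against 98.1 to 100.2 CPM and 232.5 CPM over 7 bile duct markers against 92.7 to 117.9 CPM. Its sums were also the highest for mesenchymal markers, 2967 CPM against 1280 to 2042 CPM. The same held for haematopoietic progenitor markers, with 28.5 CPM against 6.62 to 19.4 CPM. Results below are given with and without these libraries where they rest on them.

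The 10 genes stood at very different levels in hepatoblasts, and their order was another one after culture. Per kb of exon, the scale on which genes can be compared, Gpc3 was highest with 478 ± 95.8 CPM per kb, at percentile 99.7 of 17765 tested genes. Hmga1 followed with 43.9 ± 3.14 and Igf2bp1 with 23.1 ± 3.33 CPM per kb, and the libraries of these 3 genes overlapped neither each other nor the next gene, Trim71, at 13.3 ± 3.06 CPM per kb. From Trim71 downward through Igf2bp2, Igf2bp3, Sall4, Hmga2, Lin28b and Lin28a, each gene overlapped the next, ending at 3.88 ± 1.87 CPM per kb for Lin28a, at percentile 63.2. In Diff. hepatocytes, Gpc3 was again highest with 142 ± 13.2 CPM per kb, at percentile 98.6. Igf2bp2, Hmga1 and Igf2bp1 came next with 7.35, 6.96 and 6.87 CPM per kb and overlapped each other. The place of Hmga1 in these orders is uncertain, since 46.9% of its 75-base sequences also occur in its near copy Hmga1b and reads from them may be uncounted. Lin28b and Lin28a were lowest with 0.411 and 0.385 CPM per kb, at percentiles 28.2 and 27.3. In mature hepatocytes Hmga1 was highest with 3.22 ± 0.531 CPM per kb, at percentile 59.6, followed by Gpc3 with 0.595 ± 0.194 CPM per kb at percentile 37.2. Lin28b was lowest there, at percentile 3.15.

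**Figure D2:**
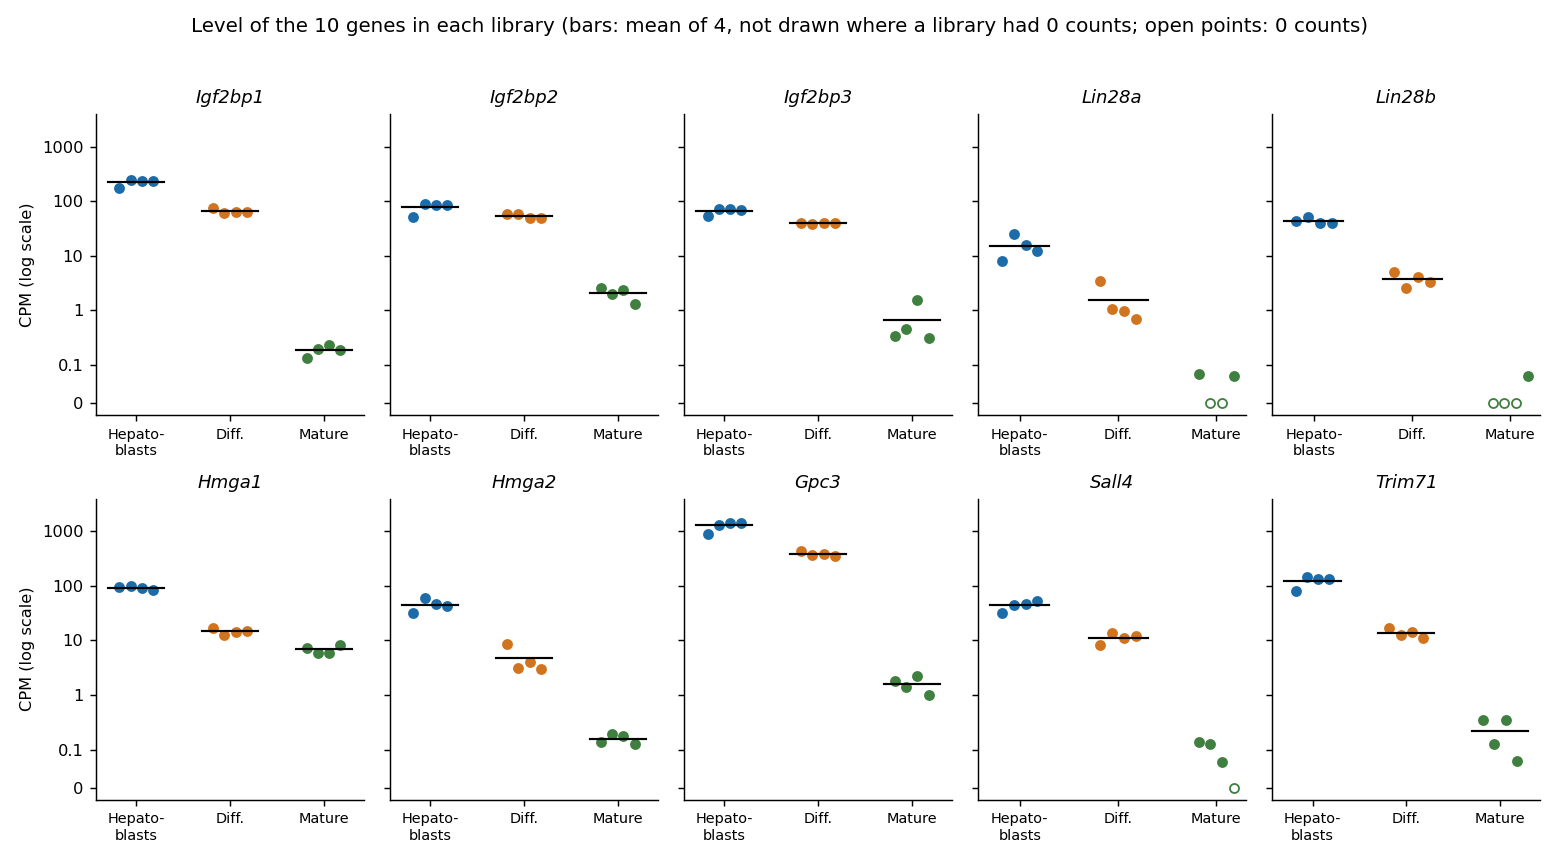
Each panel shows 1 gene, with its level in CPM on a log scale (vertical axis) in the 4 libraries of hepatoblasts, Diff. hepatocytes and mature hepatocytes, each library a point and each mean a bar, except where a library had 0 counts, shown as an open point. The hepatoblast libraries of Gpc3 reach 1454 CPM and the mature libraries of Lin28b hold 1 count in all, and the groups of Igf2bp2 are the pair that overlaps between hepatoblasts and Diff. hepatocytes.

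Against hepatoblasts, the oncofetal genes were lower in Diff. hepatocytes, though to unequal degrees. The rule for a call, in edgeR's quasi-likelihood test over 17779 genes, asked for a log2 fold change beyond 1 in size and for an adjusted p below 0.01. By this rule 8 of the 10 genes were called lower, where 14.0% of all tested genes were called lower. Igf2bp2 and Igf2bp3 were not called, with adjusted p of 0.0156 and 0.00705 and fold changes short of the threshold. The log2 fold changes of the 10 genes had a median of -2.32, against -0.01 over all genes. For 9 of the 10, all but Igf2bp2, each Diff. library lay below each hepatoblast library, which held for 28.8% of all genes. For each of these 9, an exact two-sided permutation test on log2 CPM, over the 70 assignments of 8 libraries, gave p = 0.0286, the smallest it can give. Without hepatoblasts replicate 1, and likewise without Diff. hepatocytes replicate 1, the number called was again 8. The 12 cell cycle genes, all called lower as well, fell from a summed 1494 to 2460 CPM to 98.1 to 182.5 CPM, and 11 of the 12 erythroid markers were called lower. The part of dividing cells and of blood cells in the fall of the oncofetal genes was not tested. Hepatoblasts replicate 1 had the lowest level of 8 of the 10 genes among its group. It also had the highest sums of blood markers, of cell cycle genes (2460 CPM) and of endothelial markers (134 CPM) there, and the lowest sum of identity genes (63010 CPM). These traits cannot be told apart in a single library. Diff. hepatocytes replicate 1 had the highest level of Igf2bp1, Lin28a, Lin28b, Trim71, Hmga1, Hmga2 and Gpc3 among its group. It had the lowest level of Sall4 there, and was at neither end for Igf2bp2 and Igf2bp3.

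The 3 Igf2bp genes did not behave alike. Igf2bp1 (ENSMUSG00000013415, chromosome 11 from 95957163 to 96005940 of GRCm38) measured 176, 248, 236 and 233 CPM in hepatoblasts replicates 1 to 4 and 76.1, 62.5, 62.8 and 64.7 CPM in Diff. hepatocytes. Every Diff. library was far below every hepatoblast library, with a log2 fold change of -1.75 (SE 0.11, edgeR adjusted p = 3.31e-08). Igf2bp2 (ENSMUSG00000033581, chromosome 16 from 22059009 to 22163299) measured 52.7, 90.6, 85.8 and 85.8 CPM in hepatoblasts and 58.9, 59.1, 50.6 and 48.9 CPM in Diff. hepatocytes. Hepatoblasts replicate 1 fell among the Diff. libraries, while the other 3 lay above them. Its log2 fold change was -0.53 (SE 0.17, 95% interval -0.90 to -0.17), the exact permutation test gave p = 0.0857, and without hepatoblasts replicate 1 the log2 fold change was -0.68 and still not called. Igf2bp3 (ENSMUSG00000029814, chromosome 6 from 49085223 to 49214957) measured 54.1, 71.4, 73.7 and 69.3 CPM in hepatoblasts and 40.3, 38.9, 40.5 and 40.7 CPM in Diff. hepatocytes, so that its groups did not overlap. Its log2 fold change was -0.74 (SE 0.21, 95% interval -1.19 to -0.30), an interval that includes the threshold. Scaled by library totals alone it was -1.06 and called (edgeR adjusted p = 0.000696). Exons of Igf2bp1 overlap Gm29202 and those of Igf2bp3 overlap Malsu1 on the opposite strand, and the strand setting of the authors' counting is not given in the sources used here.

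The let-7 regulators Lin28a and Lin28b were both called lower in Diff. hepatocytes. Lin28b (ENSMUSG00000063804, chromosome 10 from 45376620 to 45486395) measured 44.1, 51.1, 40.0 and 40.4 CPM in hepatoblasts and 4.97, 2.54, 4.09 and 3.30 CPM in Diff. hepatocytes. The groups were well apart, and the log2 fold change was -3.56 (SE 0.20, edgeR adjusted p = 1.07e-08). Lin28a (ENSMUSG00000050966, chromosome 4 from 134003330 to 134018841), the sister gene best known from pluripotent cells, varied more. Its hepatoblast libraries had 8.09, 25.6, 16.2 and 12.2 CPM, and its Diff. libraries had 3.42, 1.08, 0.977 and 0.690 CPM, which rest on 79, 25, 22 and 14 counts. Replicate 1 was the lowest hepatoblast library and the highest Diff. library. The log2 fold change of Lin28a was -3.32 (SE 0.48, edgeR adjusted p = 5.32e-05) over all libraries and -4.07 without Diff. hepatocytes replicate 1. Exons of Lin28a overlap Gm13061 on the opposite strand. Among listed pluripotency and germline genes, Pou5f1, Nanog, Sox2, Dppa2 and Dppa4 were near 0, with mean levels of at most 0.0329 CPM in every group. They did not pass the filter on counts. Lefty1, Dnd1 and Ddx4, the rest of that list, passed it with mean levels of at most 0.780 CPM in every group. None of the list was called in Diff. hepatocytes against hepatoblasts, and Ddx4 was called lower in mature hepatocytes.

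Trim71 and Sall4, both regulators of stem and progenitor cells, were called lower too. Trim71 (ENSMUSG00000079259, chromosome 9 from 114507133 to 114564369) had 82.3, 145.9, 136.0 and 133.4 CPM in hepatoblasts and 16.8, 12.4, 14.1 and 11.3 CPM in Diff. hepatocytes. The log2 fold change was -3.19 (SE 0.20, edgeR adjusted p = 3.13e-08). Sall4 (ENSMUSG00000027547, chromosome 2 from 168748332 to 168767943) had 32.4, 45.5, 46.2 and 52.9 CPM in hepatoblasts and 8.22, 13.6, 10.9 and 12.2 CPM in Diff. hepatocytes, with a log2 fold change of -1.98 (SE 0.19, edgeR adjusted p = 1.38e-06). Replicate 1 was the lowest library of Sall4 in both groups, which for Trim71 held in hepatoblasts only. Exons of both genes overlap a gene on the opposite strand, C130032M10Rik at Trim71 and Gm14261 at Sall4.

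The architectural factors Hmga1 and Hmga2 both fell after culture. Hmga1 (ENSMUSG00000046711, chromosome 17 from 27556497 to 27563674) had 94.1, 101.8, 91.8 and 85.6 CPM in hepatoblasts and 17.2, 12.7, 14.2 and 15.0 CPM in Diff. hepatocytes. Its log2 fold change was -2.66 (SE 0.12), with the smallest adjusted p of the 10 (edgeR, 1.95e-09). Hmga2 (ENSMUSG00000056758, chromosome 10 from 120361275 to 120476469) had 31.6, 60.2, 46.3 and 43.3 CPM in hepatoblasts and 8.56, 3.19, 4.04 and 2.96 CPM in Diff. hepatocytes. Diff. hepatocytes replicate 1, with 198 counts against 60 to 91 in the other 3, was the highest, and the log2 fold change was -3.27 (SE 0.30, edgeR adjusted p = 9.24e-07) with it and -3.73 without it. Of the 75-base sequences in transcripts of Hmga1, 46.9% also occur in Hmga1b, so reads that map to both may be missing from its counts. Hmga1b itself had 17 to 31 counts in hepatoblasts, 3 to 5 in Diff. hepatocytes and 0 to 4 in mature hepatocytes. Each of the other 9 genes shared under 0.2% of such sequences. Exons of Hmga1 overlap AI413582 and Gm49774, and those of Hmga2 overlap 1700006J14Rik, on the opposite strand.

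Gpc3 (ENSMUSG00000055653, chromosome X from 52272426 to 52613950), the most abundant of the 10, had 909, 1325, 1450 and 1454 CPM in hepatoblasts and 433, 365, 380 and 352 CPM in Diff. hepatocytes. Its log2 fold change was -1.75 (SE 0.17, edgeR adjusted p = 1.82e-06). Per kb of exon, its lowest Diff. library, at 131 CPM per kb, stood above the highest hepatoblast library of any of the other 9 genes, that of Hmga1 at 47.9 CPM per kb.

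Expressed as a share of the hepatoblast mean, the genes spread from Igf2bp2, with 69.1% left in Diff. hepatocytes, to Lin28b, with 8.49%. Igf2bp3 kept 59.7%, and its 4 Diff. libraries lay between 57.9% and 60.7%. Igf2bp1 and Gpc3 both kept 29.8%, with libraries between 28.0% and 34.1% and between 27.4% and 33.7%. Sall4 kept 25.3% and Hmga1 15.9%. Trim71 kept 10.96%, Hmga2 10.3% and Lin28a 9.92%, and in the last 2 the highest library, Diff. hepatocytes replicate 1, stood at 18.9% and 22.0%. The order of Lin28b, Lin28a, Hmga2 and Trim71 turned with single libraries. Without hepatoblasts replicate 2 the log2 fold change of Lin28a was -2.97 against -3.10 for Hmga2 and for Trim71, and without Diff. hepatocytes replicate 1 that of Hmga2 was -3.733 against -3.725 for Lin28b and -4.07 for Lin28a.

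**Figure D3:**
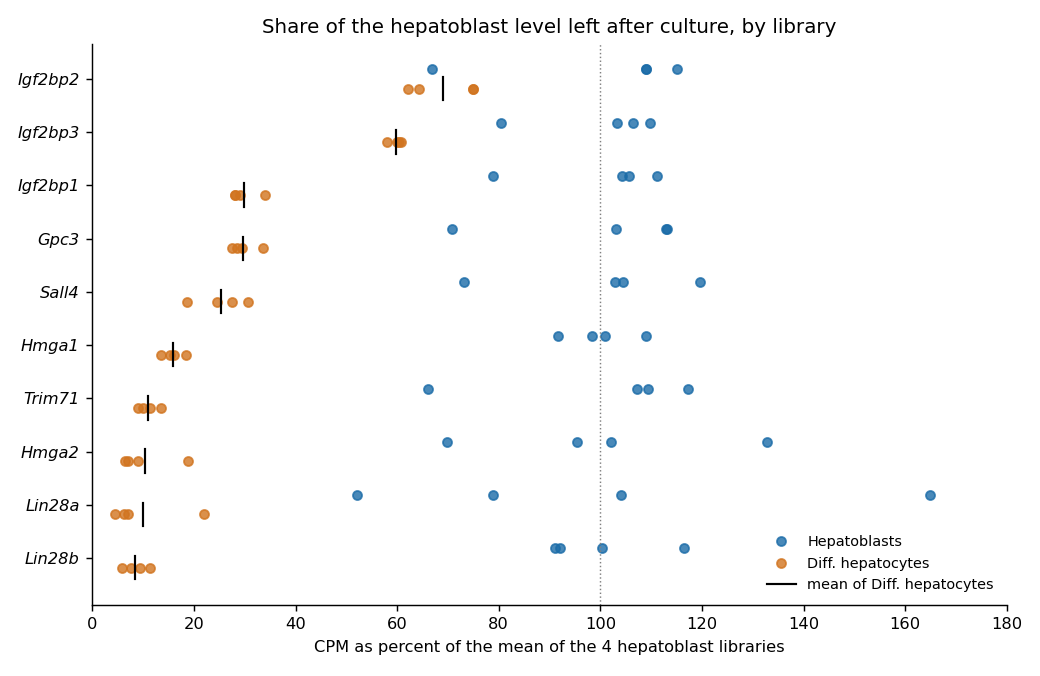
For each gene, points give the level of single libraries as a percent of the mean of the 4 hepatoblast libraries (horizontal axis), in blue for hepatoblasts and orange for Diff. hepatocytes, with a black bar at the Diff. mean. The Diff. means run from 69.1% for Igf2bp2 down to 8.49% for Lin28b, and only for Igf2bp2 does a hepatoblast library lie among the Diff. libraries.

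In mature hepatocytes the oncofetal genes were close to absent, with Hmga1 as the main exception. All 10 were called lower than in hepatoblasts, where 24.7% of all tested genes were called lower, and for all 10 the groups did not overlap, as for 35.9% of all genes lower in each mature library. The median log2 fold change was -8.88, against -0.15 over all genes, and edgeR adjusted p lay between 3.79e-13 and 4.31e-07. All 10 genes passed the filter on counts, 6 of them without more than 10 counts in any mature library. Because these genes passed only through the groups in which they were high, the number called has to be read with their counts. Lin28b had 1 count over the 4 mature libraries against 5532 over the 4 hepatoblast libraries, a ratio of 2794 after scaling (95% counting interval 501 to 110400). For Lin28a there were 2 counts against 1976, a ratio of 499 (138 to 4123). Sall4 had 5 counts, Hmga2 10, Igf2bp1 12 and Trim71 14 in the mature libraries together. A library with 0 counts allows up to 3 counts at this depth, and intervals of counts cover counting error only. Without mature hepatocytes replicate 4, which held the 1 count of Lin28b, its fitted log2 fold change moved from -11.02 to -13.04, a value set by the prior of the fit.

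The genes that could be measured in mature hepatocytes were Hmga1, Igf2bp2, Gpc3 and Igf2bp3. Hmga1 had 7.13, 5.97, 5.95 and 8.32 CPM, on 93 to 134 counts per library, which was 7.33% of its hepatoblast mean and a log2 fold change of -3.77 (SE 0.13). Igf2bp2 had 2.61, 1.99, 2.39 and 1.30 CPM, or 2.63% of hepatoblasts, with a log2 fold change of -5.25 (SE 0.22). Gpc3 had 1.78, 1.41, 2.22 and 0.993 CPM, on 16 to 38 counts, and its log2 fold change of -9.64 (SE 0.26) came from the highest starting level of the 10. Igf2bp3 had 0.343, 0.449, 1.58 and 0.310 CPM, on 5, 7, 27 and 5 counts. Replicate 3 was above the other 3 libraries, and the log2 fold change of Igf2bp3 was -6.60 (SE 0.31) with it and -7.50 without it. In the comparison of Diff. with mature hepatocytes, the same library moved Igf2bp3 from 5.85 to 6.75.

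Compared with mature hepatocytes, Diff. hepatocytes still expressed the oncofetal genes. All 10 were called higher, where 20.2% of all tested genes were called higher, and all 10 were higher in each Diff. library than in any mature library, as were 32.4% of all genes. The median log2 fold change was 5.88, against 0.09 over all genes. The comparison shares its libraries with both of those above, so it adds no independent evidence. Igf2bp1 had 5939 counts in the Diff. libraries and 12 in the mature libraries, a ratio of 352 (95% counting interval 201 to 682) and a log2 fold change of 8.42 (SE 0.20). Gpc3 was 238 times the mature level (196 to 292) and Sall4 142 times (60.6 to 438). For Lin28b the counts were 333 and 1, a ratio of 237 (42.2 to 9382), and without mature hepatocytes replicate 4 its fitted log2 fold change went from 7.46 to 9.47. Trim71 was at 62.1 times (36.9 to 113.9), Igf2bp3 at 57.7 times (42.9 to 79.6), Hmga2 at 30.1 times (16.2 to 63.2) and Igf2bp2 at 26.4 times (22.2 to 31.7). Lin28a, on 140 and 2 counts, was at 49.8 times (13.5 to 415), and without Diff. hepatocytes replicate 1 its log2 fold change went from 5.39 to 4.65. Hmga1 was nearest to the adult level, with a log2 fold change of 1.11 (SE 0.13, edgeR adjusted p = 4.33e-06), and with the threshold on fold change inside the test it was not called (edgeR glmTreat, adjusted p = 0.197).

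**Figure D4:**
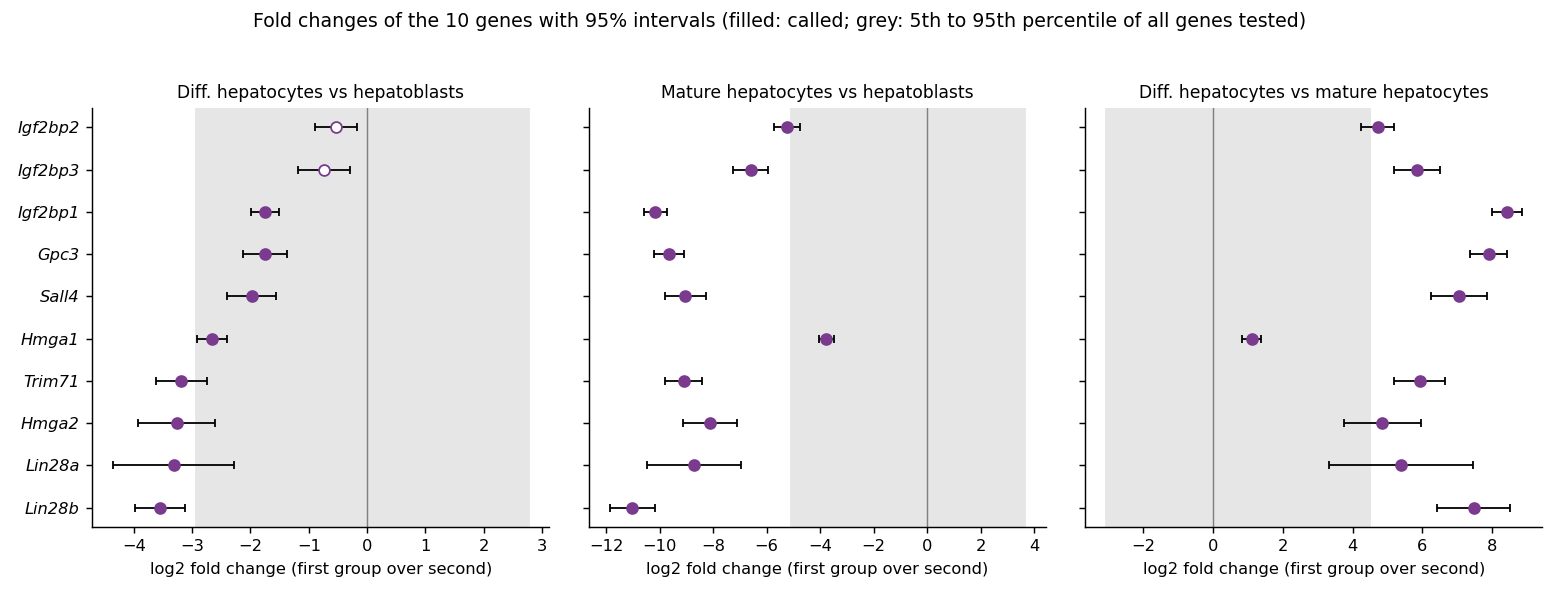
Log2 fold changes of the 10 genes in the 3 comparisons (horizontal axes, first group over second), with 95% intervals from edgeR, filled points for called genes and a grey band from the 5th to the 95th percentile of all genes tested. In Diff. hepatocytes against hepatoblasts the values run from -3.56 to -0.53 and the open points are Igf2bp2 and Igf2bp3, while against mature hepatocytes Hmga1 is the point nearest 0, at 1.11.

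The balance of related genes within a library was compared between hepatoblasts and Diff. hepatocytes for 5 pairs, as the log2 ratio of their CPM, which is not corrected for length and so is read between groups alone. The ratio of Igf2bp1 to Igf2bp2 was 1.52 ± 0.145 in hepatoblasts and 0.29 ± 0.145 in Diff. hepatocytes, a difference of -1.23. That of Igf2bp1 to Igf2bp3 went from 1.73 ± 0.0516 to 0.73 ± 0.130. Neither pair overlapped between the groups (two-sided exact permutation test, p = 0.0286, the smallest possible, and 0.0714 after Benjamini-Hochberg adjustment over the 5 pairs). This design cannot bring 2 of 5 pairs below an adjusted p of 0.05. Igf2bp2 to Igf2bp3 moved by 0.23 (exact p = 0.143, adjusted 0.179) and Lin28a to Lin28b by 0.09 (exact p = 0.886, adjusted 0.886). The ratio of Hmga2 to Hmga1 moved by -0.71 (exact p = 0.0571, adjusted 0.0952), with a change of -0.98 without Diff. hepatocytes replicate 1 and of -0.88 without hepatoblasts replicate 1, the hepatoblast library that lay among the Diff. libraries. Leaving out single libraries kept the change of Igf2bp1 to Igf2bp2 between -1.27 and -1.16, that of Igf2bp1 to Igf2bp3 between -1.07 and -0.97 and that of Igf2bp2 to Igf2bp3 between 0.15, without hepatoblasts replicate 1, and 0.28, whereas that of Lin28a to Lin28b ran from -0.24 without Diff. hepatocytes replicate 1 to 0.34 without its replicate 4, and was also below 0 without Diff. hepatocytes replicate 2 and, at -0.18, without hepatoblasts replicate 1.

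**Figure D5:**
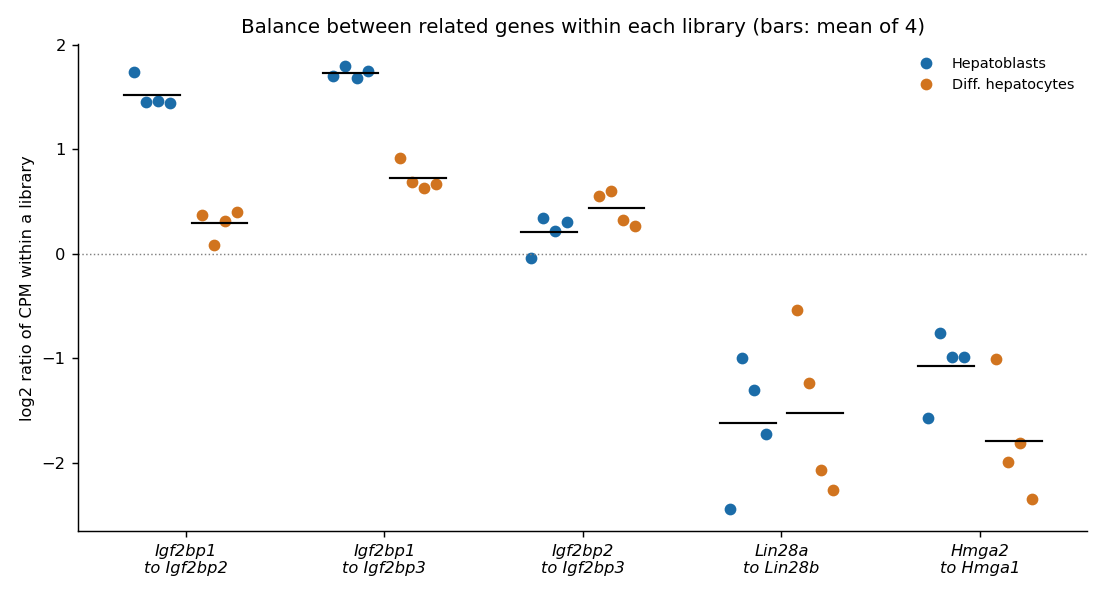
Log2 ratio of the CPM of 2 related genes within each library (vertical axis), for 5 pairs, with blue points for hepatoblasts, orange points for Diff. hepatocytes and black bars at the means of 4 libraries. The ratios of Igf2bp1 to Igf2bp2 and to Igf2bp3 do not overlap between the groups, falling from 1.52 to 0.29 and from 1.73 to 0.73, while those of Lin28a to Lin28b spread over both groups.

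The other genes of the let-7 circuit were read from lists, and counts of calls are set against 28.9% of all tested genes called in either direction in Diff. hepatocytes and 44.8% in mature hepatocytes, both against hepatoblasts. Of 17 tested known let-7 targets outside the 10, 8 were called lower in Diff. hepatocytes and the other 9 were not called, with a median log2 fold change of -0.88. Ccnd1, which drives entry into the cell cycle, went from 224 to 22.2 CPM (log2 fold change -3.33), Arid3a, a DNA-binding factor, from 106.9 to 15.3 CPM (-2.81), and Mycn, an oncogenic transcription factor, from 9.93 to 2.62 CPM (-1.92). Not called were the growth factor receptor gene Igf1r, with 26.9 and 26.4 CPM, and Ccnd2, with 49.9 and 71.8 CPM. In mature hepatocytes 15 of the 17 were called lower and 1, Myc, higher, with 31.9 CPM in hepatoblasts and 85.7 CPM in mature hepatocytes. Of 17 genes of the microRNA machinery, 1 was called in Diff. hepatocytes, Ago4, an Argonaute gene, which rose from 1.95 to 5.66 CPM. The 3′ terminal uridylyltransferase gene Tut4, which works with LIN28 on let-7 precursors, had 108.7, 61.3 and 31.5 CPM in hepatoblasts, Diff. and mature hepatocytes and was called lower in the last (log2 fold change -1.79). Its relative Tut7 had 60.9, 69.0 and 165 CPM and was called higher in the last (1.44). In mature hepatocytes 6 genes of this list were called lower and 2 higher.

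Over all genes, the share called lower in Diff. hepatocytes was 15.2% of 13029 genes without a let-7 match, 14.3% of 1262 genes with 1 match and 16.4% of 159 genes with 2. It was 41.2% of the 17 genes with 3 matches and 41.7% of the 12 with 4 or more, and 1 of 8 once the 4 oncofetal genes were left out of the last class. In mature hepatocytes the shares called lower were 25.5%, 26.2%, 29.6%, 29.4% and 75.0%, and 5 of 8 without the 4 genes. The classes with 3 or more matches are too small to rank. Mature microRNAs are not captured by poly(A) libraries and were not measured. Long transcripts that span let-7 hairpins were looked up after the values had been seen. 6720427I07Rik, a noncoding gene over the hairpins of let-7a-1, let-7f-1 and let-7d, had 1.502 ± 0.433, 3.64 ± 0.291 and 0.394 ± 0.129 CPM in the 3 groups, and was called higher in Diff. hepatocytes (log2 fold change 1.27, edgeR adjusted p = 0.000491) and lower in mature hepatocytes (-1.92, edgeR adjusted p = 4.94e-05), both against hepatoblasts. Lncppara, over let-7b and let-7c-2, had 0.0972, 0.164 and 1.37 CPM in the 3 groups and was called higher in mature hepatocytes (log2 fold change 3.75, edgeR adjusted p = 3.35e-05).

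Among partners of the other members, the calls of the N6-methyladenosine and high mobility group lists were all lower. Those of the lists of Sall and NuRD genes and of glypicans went both ways. Of 16 genes that write, erase or read N6-methyladenosine, which the IGF2BP proteins bind, 1 was called lower in Diff. hepatocytes, Hnrnpa2b1, with 1088 and 413 CPM. In mature hepatocytes 2 were called lower, Hnrnpa2b1 and Hnrnpc. Of 9 other high mobility group genes 5 were called lower in Diff. hepatocytes, among them Hmgb2, from 91.2 to 4.40 CPM, and Hmgn2, from 119 to 14.1 CPM, and 5 were called lower in mature hepatocytes. Of 15 tested genes of the Sall family and the NuRD complex, 3 were called lower in Diff. hepatocytes, the deacetylase genes Hdac1 and Hdac2 and the histone chaperone gene Rbbp4, and 2 higher, Sall1, from 35.1 to 71.5 CPM, and Rbbp7, from 234 to 813 CPM. In mature hepatocytes 6 of the 15 were called lower and 1 higher. Of 10 tested genes of the glypican list, Gpc4 was called higher in Diff. hepatocytes. It had 5.45, 29.6 and 117 CPM in hepatoblasts, Diff. and mature hepatocytes. Notum, listed for glypican-linked signalling, was called lower in Diff. hepatocytes, at 1.00, 0.0339 and 31.5 CPM in the same groups. In mature hepatocytes 3 of the list were called lower and 4 higher. The relatives of Trim71 with the same NHL domain, Trim2, Trim3 and Trim32, were called in neither comparison, and Trim2, the most abundant in CPM, had 47.4, 41.5 and 42.9 CPM.

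Of 11 other oncofetal and imprinted liver genes and their repressors, Diff. hepatocytes had 4 called lower and 2 called higher, and mature hepatocytes 9 and 2. Igf2, the growth factor gene whose mRNA gave the Igf2bp family its name, had 660, 200.6 and 0.972 CPM in the 3 groups, in the order above, and Afp, the fetal serum protein, had 39340, 18610 and 42.3 CPM. The imprinted noncoding RNA H19 had 14920, 22230 and 33.6 CPM and was not called in Diff. hepatocytes (log2 fold change 0.58). Zbtb20, a repressor of Afp in the adult liver, was called higher in both, at 19.3, 60.1 and 354 CPM.

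Markers of other cells moved between the groups as well, and their part in the levels of the oncofetal genes was not tested beyond the values given here. Of 10 markers of haematopoietic progenitors, 4 were called lower in Diff. hepatocytes, where their sums lay between 6.62 and 28.5 CPM, and in mature hepatocytes 4 were called lower, with sums between 11.4 and 19.1 CPM. Erythroid sums lay between 84.9 and 116 CPM in Diff. hepatocytes and between 179.9 and 221 CPM in mature hepatocytes, where 11 markers were called lower, Alas2 was called higher at 151 CPM, and Gata1 had 0 counts in each mature library. Endothelial markers were called lower for 6 of 8 genes in Diff. hepatocytes, with sums of 34.2 to 134 CPM in hepatoblasts and 11.4 to 19.4 CPM in Diff. hepatocytes, and higher for 5 of 8 in mature hepatocytes, with sums of 128 to 231 CPM. The 5 megakaryocyte markers were called in neither direction in Diff. hepatocytes, with sums of 15.8 to 70.9 CPM in hepatoblasts and 26.3 to 72.1 CPM in Diff. hepatocytes, and all 5 were called lower in mature hepatocytes, at 4.04 to 6.10 CPM. Of 10 macrophage markers, Diff. hepatocytes had 2 called lower and 1 called higher, and mature hepatocytes 2 and 2, with sums of 116 to 221 CPM. Of 9 mesenchymal markers, 3 were called higher and 1 lower in Diff. hepatocytes, where sums lay between 1280 and 2967 CPM against 1249 to 2257 CPM in hepatoblasts, and 7 were called lower and 1 higher in mature hepatocytes, at 66.8 to 97.8 CPM. Bile duct markers were called higher for 3 of 7 genes in Diff. hepatocytes, with sums of 92.7 to 232.5 CPM against 27.1 to 35.7 CPM in hepatoblasts, and in mature hepatocytes for 1 of 7, with another 1 lower and sums of 37.3 to 65.9 CPM.

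The genes most like each of the 10 were taken as the 3 with the smallest root mean square difference of centred log2 CPM over the 12 libraries, among 13153 genes with a mean of at least 1 CPM. With only 3 groups, such likeness mostly reflects the group means. For Igf2bp1 and for Gpc3 they were the same 3 genes, Igf2, Afp and Bex4, with distances of 0.284 and 0.329 to Igf2, and Igf2bp1 and Gpc3 were also the closest pair among the 10, at 0.253. For Hmga1 they were the spindle checkpoint gene Mad2l1 at 0.184, the centrosomal gene Cep72 at 0.187 and the tubulin gene Tuba1b at 0.198. Lin28b was nearest to Smarca1, Mirg and Meg3, and Hmga2 to Gsn, Mirg and Asb4. Meg3 and Mirg are noncoding RNAs of the imprinted Dlk1 region, and Mirg, at 62.6, 5.57 and 0.144 CPM in the 3 groups, was also among the 3 nearest to Trim71. Sall4 was nearest to Phgdh, an enzyme of serine synthesis, at 0.297. The genes nearest to Igf2bp2 and Igf2bp3 were others, Col8a2, Greb1l and Rtl3 for the first and Mfap2, Gipc2 and Eln for the second.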

How the data were processed

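Poly(A) RNA of 12 libraries (3 groups of 4) had been sequenced with 75-base single reads. Per the study's methods and the submitters' processing notes, the authors checked reads with FastQC 0.11.2, mapped them to GRCm38 and counted Ensembl genes with STAR 2.5.2b, and what they deposited holds raw counts for each gene and library, with no normalization, filter or pooling. Duplicates were assessed with Picard 2.10.2, and whether they were removed, and which strand setting was counted, is not given in the sources used here. Reads that map to several places, as between Hmga1 and Hmga1b, may be lost.

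Samples were grouped by their titles. Of 53715 genes, 17779 that exceeded 10 counts in at least 1 library were tested with edgeR 4.0.16 (R 4.3.3, TMM factors, quasi-likelihood test, all 12 libraries, Benjamini-Hochberg adjustment over all tested genes). TMM factors were 1.23 to 1.44 in hepatoblasts, 1.03 to 1.08 in Diff. hepatocytes and 0.677 to 0.778 in mature hepatocytes. Log2 CPM carry a prior count of 2. On simulated counts for Diff. hepatocytes against hepatoblasts, with 16336 genes tested, 200 of 200 changed genes and 1 unchanged gene were called. The changed genes were well counted, their changes lay well beyond the threshold and every gene was given the same spread. The simulation thus checks the code only, and says nothing of genes with few counts, a wide spread or changes near the threshold. Replicates differed by more than counting noise (chi-square per gene 5.8 to 88.2). The named genes are the 10, examples from lists counted whole, and the 3 nearest genes by profile. The 10 genes and the lists were chosen with earlier results of these data known. Sequences came from RefSeq and GENCODE M21, which held 53620 of the identifiers. Alternatives were other tests, scalings, filters, thresholds, a replicate block and leaving out single libraries. Leaving out libraries for the ratios of related genes was chosen after seeing the data.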

Additional observations from a re-analysis of the deposited data

Results flagged for a closer look

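A library was set apart where its distance to the nearest of the other 3 was an unusually large part of the range of its group (Dixon's test at 95%). Of 40 groups of libraries checked, 6 were set apart, where chance would give 2 if the groups were independent and their values normal. They share libraries and gene values, so the 2 numbers do not show an excess. A single count against 0 in the other 3 libraries is always set apart. In Diff. hepatocytes replicate 1, Igf2bp1 stood at 76.1 CPM against 62.5 to 64.7 CPM in the other 3 libraries, and Lin28a at 3.42 CPM against 0.690 to 1.08 CPM. In hepatoblasts replicate 1, the library with the highest blood cell markers of its group, Igf2bp2 stood at 52.7 CPM against 85.8 to 90.6 CPM, and the log2 ratio of Igf2bp1 to Igf2bp2 was 1.74 against 1.44 to 1.46. In mature hepatocytes, Igf2bp3 stood at 1.58 CPM in replicate 3 against 0.310 to 0.449 CPM, and Lin28b at 0.0621 CPM in replicate 4, which is 1 count, against 0 in the other 3.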

How the results depend on the processing

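Of 639 values of the 10 genes under alternatives, 637 kept their direction and their side of the threshold, 1 gained a call (Igf2bp3 with library totals alone, which makes 9 genes called in Diff. hepatocytes against hepatoblasts), 1 lost it (Hmga1 in Diff. against mature hepatocytes with glmTreat) and 0 reversed. The number of all genes called in Diff. hepatocytes against hepatoblasts was 5145, and it was 2966 with glmTreat, 2634 with at least 10 counts in every library and 10615 at an adjusted p under 0.05 with no threshold on fold change. In mature hepatocytes against hepatoblasts it was 7971, and 4379 and 12870 under the last 2 settings. In Diff. against mature hepatocytes it was 6362, and 4221, 3107 and 11580 under the 3 settings. With at least 10 counts in every library only 3 of the 10 genes were tested, and 2, 3 and 3 were called in the 3 comparisons. DESeq2 1.42.0 called 5253, 8010 and 6490 genes and 8, 10 and 10 of the 10. Leaving out 1 library at a time gave 4704 to 5170, 7621 to 7967 and 6027 to 6532 genes, and 8, 10 and 10 of the 10 each time.

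Scaling moved the balance of all calls. With library totals alone the share of calls that were higher went from 51.5% to 35.4%, from 44.9% to 20.2% and from 56.4% to 75.6% in the 3 comparisons, with medians over all genes of -0.34, -1.0 and 0.62. With totals without the 50 most abundant genes the shares were 46.0%, 24.5% and 76.5%, with medians of -0.12, -0.82 and 0.65.

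Replicate numbers were not taken to pair the libraries: correlations of same-numbered libraries were -0.0589 to 0.324 between hepatoblasts and Diff. hepatocytes (3 of 4 over 0.1), -0.0309 to 0.0923 between hepatoblasts and mature hepatocytes and -0.0813 to 0.0865 between Diff. and mature hepatocytes, and 2 hepatoblast and 3 Diff. libraries correlated best with their own number. With the replicate block 5220, 7988 and 6359 genes were called, and 8, 10 and 10 of the 10. Counts of 0 to 6 per library limit what can be said of Lin28a, Lin28b, Sall4, Hmga2, Igf2bp1 and Trim71 in mature hepatocytes.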

Other observations

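Other annotated transcripts that span let-7 hairpins had mean levels in hepatoblasts, Diff. and mature hepatocytes as follows, looked up after the values had been seen. 3110039I08Rik, over let-7a-2, had 0.594, 1.46 and 0.016 CPM. D630033A02Rik, over let-7i, had 0.183, 0.721 and 0.0939 CPM. Both were called higher in Diff. hepatocytes than in hepatoblasts (log2 fold changes 1.29 and 1.94, edgeR adjusted p = 0.00507 and 0.000123), and 3110039I08Rik was called lower in mature hepatocytes (-4.82, edgeR adjusted p = 2.57e-05). Mir99ahg, over let-7c-1, had 1.72, 0.984 and 2.30 CPM, and Spaca6, over let-7e, had 16.0, 14.51 and 1.86 CPM and was called lower in mature hepatocytes than in hepatoblasts (log2 fold change -3.09, edgeR adjusted p = 3.77e-08). The protein-coding hosts Wdr82 (let-7g) and Huwe1 (let-7f-2) had 87.3, 60.3 and 58.7 CPM and 341, 461 and 329 CPM. None of these 4 was called in Diff. hepatocytes against hepatoblasts by edgeR, where the adjusted p of Huwe1 was 0.00169 and that of Wdr82 1.03e-05, with fold changes short of the threshold. A host transcript is not a measure of the mature microRNA.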
